A study of Mus musculus with 9 samples.

Results

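The Fos and Jun family of transcription factors was followed in the hearts of mice under pressure overload. Its 7 members, Fos, Fosb, Fosl1, Fosl2, Jun, Junb and Jund, were chosen by gene symbol in the platform annotation and make up 7 of the 20239 named genes measured. Each member had 1 probe set, and no member was left out for its values. The arrays came from whole hearts of male C57BL/6 mice in 3 groups of 3 animals, 1 heart to an array. Every mouse, controls included, was given an adeno-associated virus (AAV) at 8 weeks of age, with a cargo driven by the myosin light chain (MLC) promoter. Surgery followed 4 weeks later, and hearts were taken 4 weeks after surgery. The sham-luciferase group received luciferase virus and sham surgery. The TAC-luciferase group received the same virus and transverse aortic constriction (TAC), which narrows the aorta and makes the left ventricle pump against a higher pressure. The TAC-HDAC4-NT group underwent TAC with a virus for amino acids 1 to 201 of histone deacetylase 4, the amino-terminal fragment called HDAC4-NT here. No sham group received HDAC4-NT, so what the fragment does without TAC was not measured, and each animal kept its own Hdac4 gene. In RNA from whole hearts, fewer cells of a type and less RNA per cell cannot be told apart.

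Fos and Jun proteins are basic leucine zipper factors that pair to form activator protein 1 (AP-1). Jun proteins can pair with each other or with Fos proteins, while Fos proteins need a partner. The pairs bind the sequence TGACTCA, and also the cyclic AMP response element TGACGTCA, in genes for growth, matrix remodelling and inflammation. Several members are immediate early genes, switched on from pre-existing factors soon after a growth factor, stress or stretch signal. In the heart they are classic early responders to a pressure load. HDAC4 is a class IIa histone deacetylase, and its amino-terminal part binds and represses MEF2, a factor with a known binding site in the Jun promoter. The comparison of TAC-HDAC4-NT with TAC-luciferase asks how the fragment alters the heart's gene expression under load.

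Promoter sequence of 4 members is printed because they had the largest fold differences of the family after TAC with luciferase (Fosl2, Fos, Junb) or because the member follows another order among the hearts and carries a MEF2 motif (Jun). Each run holds the 150 bases just upstream of the RefSeq gene, 5′ to 3′ on the gene's own strand, in build GRCm38.p6. The stretches lie at chr12:85473740-85473889 on the plus strand for Fos, chr5:32136322-32136471 on the plus strand for Fosl2, chr4:95052223-95052372 on the minus strand for Jun and chr8:84978749-84978898 on the minus strand for Junb. Capitals mark the core TGACG of the cyclic AMP response element, the AP-1 variant TGACATCA, the TATA motif TATAAA and, in Jun, a MEF2 motif.
Fos: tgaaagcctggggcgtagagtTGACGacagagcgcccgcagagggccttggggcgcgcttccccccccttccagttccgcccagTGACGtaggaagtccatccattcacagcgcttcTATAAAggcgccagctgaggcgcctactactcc
Fosl2: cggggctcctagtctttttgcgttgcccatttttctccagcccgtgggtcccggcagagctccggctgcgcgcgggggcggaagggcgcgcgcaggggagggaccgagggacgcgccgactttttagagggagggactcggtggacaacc
Jun: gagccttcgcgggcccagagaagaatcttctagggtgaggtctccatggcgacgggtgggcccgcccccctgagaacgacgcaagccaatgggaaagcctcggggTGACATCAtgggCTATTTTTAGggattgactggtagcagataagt
Junb: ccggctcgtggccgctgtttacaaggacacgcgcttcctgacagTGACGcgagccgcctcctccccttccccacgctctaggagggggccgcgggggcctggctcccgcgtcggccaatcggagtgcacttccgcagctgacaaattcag

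The Fos promoter held TGACG at 129 and 66 bases before the start of transcription and TATAAA at 33 bases before it. In Jun, TGACATCA began 45 bases and the MEF2 motif 33 bases before the start. Junb held TGACG 106 bases before the start and TATAAA from the start itself. The Fosl2 and Jund windows held none of the motifs searched, and Fosb held TGACG 60 bases before its start, in a stretch that RefSeq places inside the gene. Windows of 300 bases (250 before to 50 after the start) were available for 6 of the 7 members. Both strands were searched for the AP-1 site TGACTCA and its variant above, for the cyclic AMP response element and the core it contains, and for the TATA, CArG box and MEF2 motifs. Of 32851 windows of that length, 20.8% held the core TGACG and 1.79% the whole element TGACGTCA. The AP-1 site was found in 5.2% of windows and its variant TGACATCA in 3.62%. The TATA motif was in 13.6%, the MEF2 motif in 3.19% and the CArG box in 1.63%. A motif not listed here for a member, the CArG box among them, may lie more than 250 bases upstream, where the search did not reach. These are matches of letters, and binding was not measured.

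Of 20239 named genes, 12597 passed the filter on low values and were tested. All 7 members were tested, but Fos passed only because its values in the 3 TAC-luciferase hearts lay above the filter level of 5.66, so Fos had to be higher there, and counts that include it are a description. The values are log2 RMA values, on which low genes' differences are understated. The TAC-luciferase hearts were not alike. Heart 1 stood apart from hearts 2 and 3 for many early response genes, and the 7 clock output genes on the arrays averaged 7.94 in heart 1 against 7.27 and 7.10 in hearts 2 and 3. The leading figure of the sample code is 8 for heart 1 and 9 for hearts 2 and 3, while it is 12 for all sham hearts and 3, 4 and 4 for the TAC-HDAC4-NT hearts. The labels do not say what it stands for, and since no figure occurs in more than 1 group, it cannot be told apart from the group. The 8 cardiomyocyte markers averaged 13.09 to 13.26 in all 9 hearts. They lie near the top of the scale, and Actc1 read the highest value on the arrays, 14.11, in every heart except sham heart 1 (13.82). At a limma adjusted p under 0.05, 2 of the 8 were lower than sham after TAC with luciferase, beside 14.9% of all genes. With HDAC4-NT, 1 was lower than sham, beside 12.3% of all genes. The average therefore does not show that cardiomyocyte content was equal. The Hdac4 probe set read 6.97 ± 0.09 with luciferase and 6.95 ± 0.08 with HDAC4-NT after TAC (SD, n = 3). The sources used here do not say whether it covers the fragment.

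After TAC with luciferase, 4 of the 7 members were called higher than sham, beside 11.2% of all genes tested: Fosl2, Fos, Junb and Jund. The filter had fixed the direction of Fos in advance. With HDAC4-NT, no member passed the test against TAC-luciferase, although all 7 means were lower. Against sham, the TAC-HDAC4-NT means of 6 members differed by -0.10 to 0.09 on the log2 scale and that of Jun by -0.38.

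**Figure D1:**
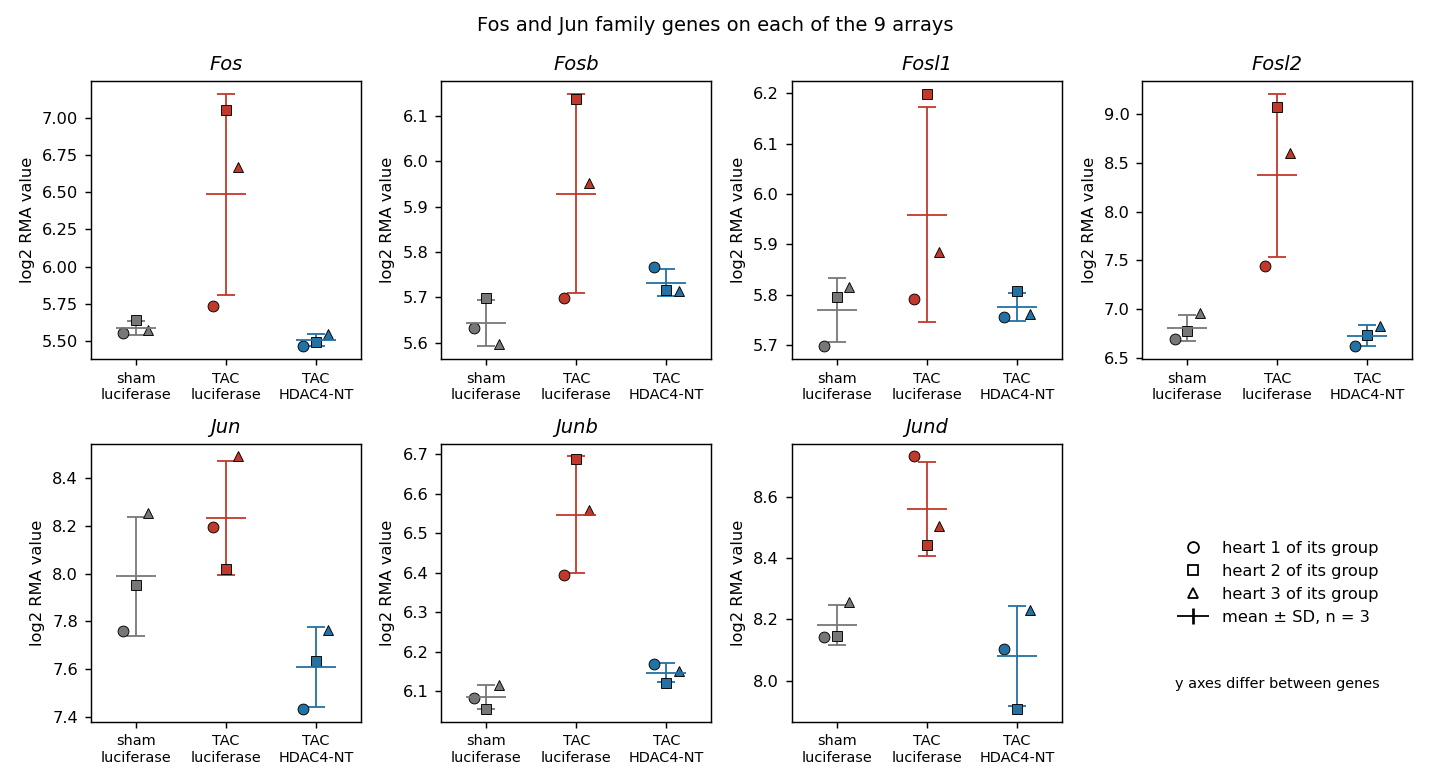
Log2 RMA value (y axis) of each Fos and Jun family gene in each of the 9 hearts by group (x axis), with circles, squares and triangles for hearts 1, 2 and 3 of a group and bars for the mean ± SD of 3 hearts. Fos, Fosl2, Junb and Jund lie higher in all 3 TAC-luciferase hearts than in any other heart, and TAC-luciferase heart 1 is the lowest of its group for Fos, Fosb, Fosl1, Fosl2 and Junb.

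Fosl2 encodes Fra-2, a Fos protein without the transactivation domain of Fos itself. It read 6.69, 6.78 and 6.96 in the sham-luciferase hearts, 7.45, 9.07 and 8.60 in the TAC-luciferase hearts and 6.62, 6.73 and 6.83 in the TAC-HDAC4-NT hearts, each in the order of hearts 1 to 3. Every TAC-luciferase heart lay above every other heart, and heart 2 was the highest. The sham-luciferase and TAC-HDAC4-NT hearts overlapped. Means were 6.81 ± 0.14, 8.37 ± 0.83 and 6.73 ± 0.11 (SD, n = 3).

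Fos encodes c-Fos, the first AP-1 subunit to appear after many stimuli. Its values were 5.56, 5.64 and 5.57 in sham-luciferase hearts, 5.74, 7.05 and 6.67 in TAC-luciferase hearts and 5.47, 5.49 and 5.55 in TAC-HDAC4-NT hearts. TAC-luciferase hearts 2 and 3 stood far above the rest, while heart 1 lay only just above the highest sham heart. All 3 TAC-HDAC4-NT hearts were below all 3 sham hearts, with both groups under the filter level. Means were 5.59 ± 0.05, 6.48 ± 0.68 and 5.50 ± 0.04.

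Fosb encodes FosB and, by splicing, the stable short form known from chronic stimulation in the brain. Fosb read 5.63, 5.70 and 5.60 with sham, 5.70, 6.14 and 5.95 with TAC and luciferase, and 5.77, 5.72 and 5.71 with TAC and HDAC4-NT. TAC-luciferase heart 1 lay level with the highest sham heart and below all 3 TAC-HDAC4-NT hearts. Fosl1, which encodes Fra-1, read 5.70, 5.80 and 5.82, then 5.79, 6.20 and 5.88, then 5.76, 5.81 and 5.76 in the same order of groups. Only TAC-luciferase hearts 2 and 3 lay above all the others for Fosl1. Both genes read close to the filter level in most hearts.

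Among the Jun genes, Junb encodes JunB, which often acts as a weaker activator than c-Jun. Junb read 6.08, 6.06 and 6.12 in the sham-luciferase hearts, 6.39, 6.69 and 6.56 in the TAC-luciferase hearts and 6.17, 6.12 and 6.15 in the TAC-HDAC4-NT hearts. The 3 groups did not overlap, and the TAC-HDAC4-NT hearts lay just above sham. Its spread was small, with means of 6.09 ± 0.03, 6.55 ± 0.15 and 6.15 ± 0.02.

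Jund encodes JunD, the Jun protein that most tissues express at rest. The Jund values were 8.14, 8.14 and 8.26 with sham, 8.73, 8.44 and 8.50 with TAC and luciferase, and 8.10, 7.91 and 8.23 with TAC and HDAC4-NT. All TAC-luciferase hearts were above all other hearts, and here heart 1 was the highest. Jund means were 8.18 ± 0.07, 8.56 ± 0.15 and 8.08 ± 0.16.

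Jun encodes c-Jun, the main partner of Fos proteins and a target of the JNK kinases. It read 7.76, 7.95 and 8.25 with sham, 8.19, 8.02 and 8.49 with TAC and luciferase, and 7.43, 7.63 and 7.76 with TAC and HDAC4-NT. The sham hearts overlapped with both other groups, and the TAC-HDAC4-NT hearts lay below all TAC-luciferase hearts. Jun varied among the sham hearts more than any other member, with means of 7.99 ± 0.25, 8.23 ± 0.24 and 7.61 ± 0.17.

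The comparison of TAC-luciferase with sham-luciferase asks what pressure overload does with the control virus. A linear model was fitted to all genes with limma, and a gene was called at a Benjamini-Hochberg adjusted p under 0.05 over the 12597 genes tested. Fosl2 rose 2.95-fold (log2 difference 1.56, SE 0.33, 95% interval 0.83 to 2.30, limma adjusted p = 0.00739). Fos rose 1.86-fold (0.90, SE 0.26, interval 0.31 to 1.48, limma adjusted p = 0.0325). The filter had fixed the direction of this Fos difference in advance, so its call is a description. Among the Jun genes, Junb rose 1.38-fold (0.46, SE 0.07, interval 0.30 to 0.62, limma adjusted p = 0.00145) and Jund 1.30-fold (0.38, SE 0.10, interval 0.16 to 0.60, limma adjusted p = 0.0182). The size of the difference and its precision did not go together, since Junb had a smaller fold than Fosl2 and Fos and the lowest p. Fosb missed the threshold (0.29, SE 0.10, interval 0.07 to 0.50, limma adjusted p = 0.0534), as did Jun (0.25, SE 0.15, interval -0.09 to 0.59, limma adjusted p = 0.281) and Fosl1 (0.19, SE 0.09, interval -0.02 to 0.40, limma adjusted p = 0.179).

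Of all genes tested, 11.2% were called higher and 14.9% lower in this comparison, 26.1% in either direction, beside 4 of 7 members higher and 0 lower, or 3 of 6 without Fos. The groups did not overlap, with TAC higher, for 4 members and for 15.9% of all genes tested. Fos is among these 4, and the filter had fixed its lack of overlap in advance. All 7 differences were above 0, as were 46.5% of those of all genes. The members' median log2 difference was 0.38, and that of all genes tested was -0.01.

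The call of Fos depended on single hearts. Without TAC-luciferase heart 2 the log2 difference of Fos was 0.61 (limma adjusted p = 0.0814), without heart 3 it was 0.80 (limma adjusted p = 0.0967), and without heart 1 it was 1.27 (limma adjusted p = 7.89e-05). The Fos call was also lost without any 1 of the 3 sham hearts (limma adjusted p = 0.0698 to 0.0894). It was lost as well with no filter (limma adjusted p = 0.0758), with a trended and robust prior (limma adjusted p = 0.0705) and with only the 6 arrays compared in the fit (limma adjusted p = 0.0731). Fosb, in contrast, was called without TAC-luciferase heart 1 (0.40, limma adjusted p = 0.00276). It was also called with a trended and robust prior (limma adjusted p = 0.0388), with array weights (limma adjusted p = 0.0191) and with the sample code as a random block (limma adjusted p = 0.03). That block had a correlation below 0 (-0.11) between hearts sharing a code, so calls it adds do not correct for likeness among them. Jund lost its call without sham heart 1 (limma adjusted p = 0.0609) or sham heart 2 (limma adjusted p = 0.0549). Fosl2 and Junb kept theirs without any 1 of the 9 hearts. With hearts 2 and 3 both left out, the log2 differences were 0.64 for Fosl2, 0.15 for Fos, 0.31 for Junb and 0.55 for Jund. That fit leaves TAC-luciferase heart 1 alone in its group, with no spread to measure there, so its calls are not given.

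**Figure D2:**
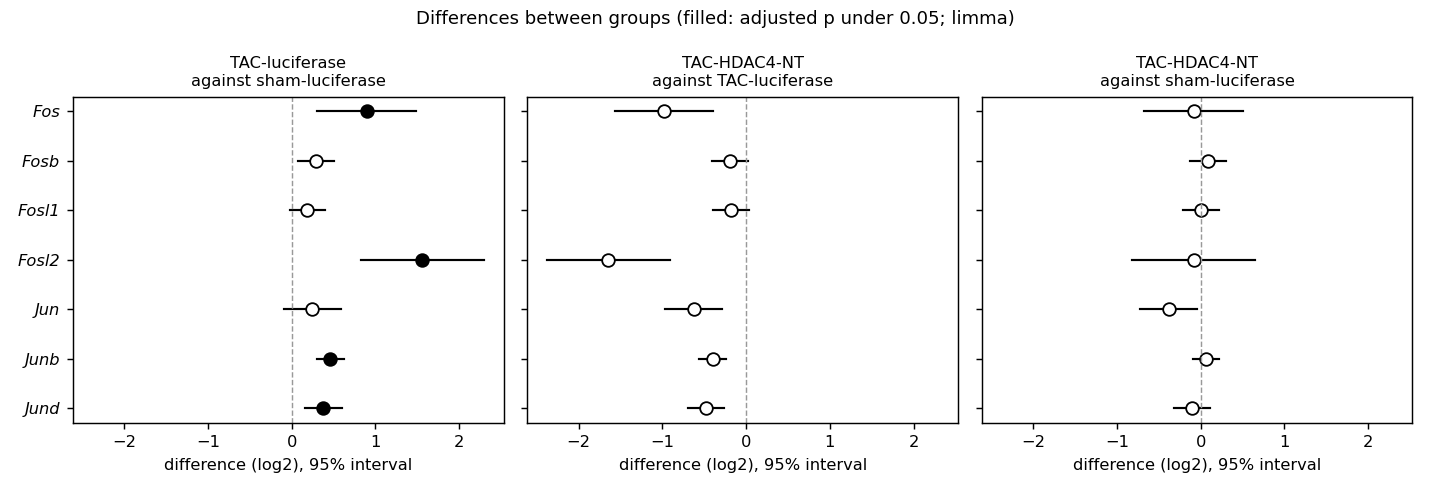
Log2 difference between group means with its 95% interval (x axis) for each family member (y axis) in the 3 comparisons, from the limma fit over all 9 arrays. Filled points passed an adjusted p of 0.05: Fos, Fosl2, Junb and Jund in TAC-luciferase against sham-luciferase, and none in the other comparisons.

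The TAC-luciferase hearts differed among themselves in an order that the Fos genes and Junb shared. These genes were highest in heart 2, next in heart 3 and lowest in heart 1. Heart 2 exceeded heart 1 by 1.62 for Fosl2, 1.32 for Fos, 0.44 for Fosb, 0.41 for Fosl1 and 0.29 for Junb on the log2 scale. Jun and Jund had other orders, and heart 2 was their lowest. The SD of Fosl2 in this group lay at percentile 99.7 of the tested genes and that of Fos at percentile 99.4, with 0.0797 as the median SD of all genes. In the TAC-HDAC4-NT group the SD of Fos was 0.04, at percentile 31.2. Clock activator genes, of which 3 were measured, averaged 7.47, 7.94 and 8.22 in these hearts 1, 2 and 3. Their averages were 7.60 to 7.90 in sham hearts and 7.10 to 7.42 in TAC-HDAC4-NT hearts. The 7 clock output genes averaged 7.83 to 8.16 in sham and 8.18 to 8.56 in TAC-HDAC4-NT hearts. The part of these differences in the family's values was not tested.

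The comparison of TAC-HDAC4-NT with TAC-luciferase sets the fragment against the control cargo after the same surgery. It shares the TAC-luciferase hearts with the comparison above, so the same values enter both. The log2 difference was -1.64 for Fosl2 (SE 0.33, interval -2.38 to -0.91, limma adjusted p = 0.0637), a level 3.12-fold lower. Fos differed by -0.98 (SE 0.26, interval -1.57 to -0.39, limma adjusted p = 0.127), Jun by -0.62 (SE 0.15, interval -0.96 to -0.28, limma adjusted p = 0.1), Jund by -0.48 (SE 0.10, interval -0.70 to -0.26, limma adjusted p = 0.0646) and Junb by -0.40 (SE 0.07, interval -0.56 to -0.24, limma adjusted p = 0.0559). These intervals exclude 0, but none of the 5 passed after adjustment over all genes. Fosb (-0.20, interval -0.41 to 0.02, limma adjusted p = 0.391) and Fosl1 (-0.18, interval -0.39 to 0.03, limma adjusted p = 0.421) had intervals that reached past 0.

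By limma, 0 of 7 members were called in this comparison, beside 0.254% of all genes tested, which is 32 genes. At an unadjusted p under 0.05, 5 members were lower, beside 6.15% of all genes. The same 5, all but Fosb and Fosl1, were lower with no overlap between groups, beside 8.8% of all genes. Fos is among these 5, and the filter had fixed its lower values and lack of overlap in advance. All 7 differences were below 0, as were 47.9% of those of all genes, and the members' median was -0.48 against 0.0042 for all genes tested. At an adjusted p under 0.10, Fosl2, Junb and Jund were called, beside 0.945% of all genes called lower.

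The number of members called changed with TAC-luciferase heart 1 and with other settings. Called were 5 members with array weights, 3 with the sample code as a random block and 2 with a stricter filter. All genes called rose too, from 32 in the reported fit to 827, 177 and 103. With a trended and robust prior 1 member was called, among 75 genes, and with the replicate number as a block 1 member, among 106 genes. With heart 1 left out, 5 members were called lower: Fosl2 (-2.11, limma adjusted p = 0.000223), Fos (-1.35, limma adjusted p = 0.000294), Junb (-0.48, limma adjusted p = 0.00276), Fosb (-0.31, limma adjusted p = 0.0314) and Jund (-0.39, limma adjusted p = 0.0405). In that fit 3.15% of all genes were called lower and 697 genes were called in all. With heart 1 kept, leaving out any other 1 heart called no member. With hearts 2 and 3 left out instead, TAC-luciferase heart 1 is alone in its group, so only differences are given. On the log2 scale they were -0.72 for Fosl2, -0.65 for Jund, -0.58 for Jun, -0.25 for Junb and -0.23 for Fos. Fosb then read 0.03.

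In TAC-HDAC4-NT against sham-luciferase, which shares hearts with both comparisons above, 0 of 7 members were called by limma, beside 22.8% of all genes tested. Only Jun passed at an unadjusted p under 0.05, beside 33.8% of all genes, with a log2 difference of -0.38 (SE 0.15, interval -0.72 to -0.04, limma adjusted p = 0.108). The intervals of the others held 0 and differed in width. Those of Fosl2 (-0.82 to 0.65) and Fos (-0.67 to 0.50) were the widest. Those of Junb (-0.10 to 0.22), Fosl1 (-0.21 to 0.22), Fosb (-0.12 to 0.30) and Jund (-0.32 to 0.12) were narrower. The fit pools the spread of every group, so the widths also carry the TAC-luciferase hearts, which are outside this comparison. The SD of Fos was 0.0455 in sham, 0.0407 in TAC-HDAC4-NT and 0.6765 in TAC-luciferase hearts. For Fosl2 it was 0.135, 0.1061 and 0.8341 in that order. The widths for Fos and Fosl2 therefore do not measure the spread within the groups compared here. Fosb and Junb were higher than sham with no overlap, by 0.09 and 0.06, beside 18.3% of all genes. Fos was lower with no overlap, by a log2 difference of -0.08, beside 21.5% of all genes. The median of the members was -0.08, and that of all genes tested was -0.01.

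AP-1 also forms with basic leucine zipper proteins outside the family, the ATF, BATF, JDP and MAF proteins. Of 12 such partner genes measured and tested, 4 rose and 0 fell after TAC with luciferase, beside 11.2% and 14.9% of all genes tested, with a list median of 0.02 against -0.01 for all genes. Atf3, a stress-induced factor that pairs with Jun proteins, read 6.15, 6.06 and 6.41 with sham, 8.03, 8.98 and 8.76 with TAC and luciferase, and 5.87, 5.93 and 6.41 with TAC and HDAC4-NT. Every TAC-luciferase heart was far above the rest, in the heart order of Fosl2. Atf3 rose 5.22-fold with TAC and luciferase (2.39, SE 0.23, limma adjusted p = 0.000152). It was lower with HDAC4-NT than with luciferase (-2.52, SE 0.23, limma adjusted p = 0.00667), the only partner called there, beside 0.254% of all genes. That last call was lost without TAC-HDAC4-NT heart 1 or 2 (limma adjusted p up to 0.0622). Mafk, a small MAF protein, rose after TAC with either cargo, by 0.97 (limma adjusted p = 0.000294) and 0.62 (limma adjusted p = 0.00366). Atf4, the effector of the integrated stress response, rose with luciferase by 0.47 (limma adjusted p = 0.000276). Maff rose by 0.51 (limma adjusted p = 0.0325), a call held in 5 of the 9 fits that each left out 1 heart (limma adjusted p up to 0.0971). The partner list's median was -0.09 in TAC-HDAC4-NT against TAC-luciferase and -0.0019 against sham, where Mafk was the 1 gene called, beside 10.5% of all genes called higher and 12.3% lower. Without TAC-luciferase heart 1, 4 partners were called lower with HDAC4-NT than with luciferase, beside 3.15% of all genes: Atf3, Jdp2, Maff and Atf4.

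**Figure D3:**
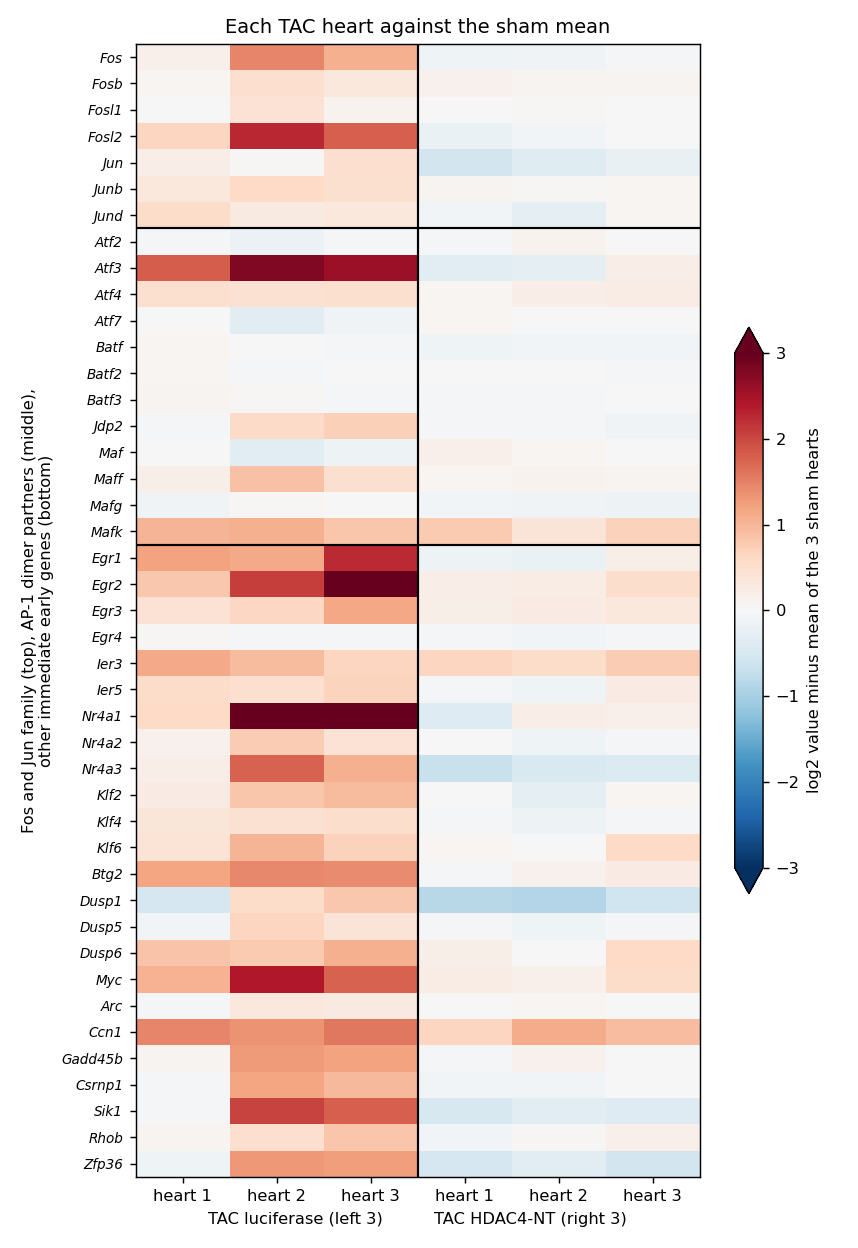
Log2 value minus the mean of the 3 sham hearts (colour, red higher and blue lower, with values past 3 shown at the end of the scale) for each TAC heart (x axis) and the family, its partner genes and other immediate early genes (y axis, from top to bottom). Atf3 and Fosl2 are red in all 3 TAC-luciferase hearts and deepest in heart 2, and the TAC-HDAC4-NT columns are pale for most rows.

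Signals reach the family through MAP kinase cascades, whose end kinases phosphorylate Jun, Fos and the factors at their promoters. Of 19 cascade genes tested, 1 rose and 5 fell after TAC with luciferase, beside 11.2% and 14.9% of all genes, and the list's median was -0.07. Those lower were Map3k5, an upstream kinase of JNK and p38 (-0.67, limma adjusted p = 0.000243), Mapk14, which encodes p38 alpha (-0.75, limma adjusted p = 0.000938), Rps6ka5, which encodes the kinase MSK1 (-0.45, limma adjusted p = 0.00102), Mapk9 and Map2k5. The Map2k5 call held in 4 of the 9 fits that each left out 1 heart (limma adjusted p up to 0.133). Map2k3 was the 1 that rose (0.40, limma adjusted p = 0.00281). Between the TAC groups, 0 of 19 were called by limma, 4 of them at an unadjusted p under 0.05, beside 14.3% of all genes, and the smallest p was that of Rps6ka5 (0.20, limma adjusted p = 0.197). With HDAC4-NT against sham, 1 rose (Map2k3) and 4 fell (Map3k5, Mapk14, Rps6ka5 and Mapk9), beside 10.5% and 12.3% of all genes. The calls of Map2k3, Mapk9 and Rps6ka5 there each held in 4 of the 9 fits that left out 1 heart, with limma adjusted p up to 0.114, 0.0784 and 0.0665, and each was lost without any 1 of the 3 TAC-HDAC4-NT hearts. RNA levels of kinases do not report their activity.

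Of 16 genes for regulators of the Fos and Jun promoters, 2 rose and 3 fell after TAC with luciferase, beside the same shares of 11.2% and 14.9%, with a median of -0.13. Stat3, which binds the Fos promoter on cytokine signals, rose by 0.52 (limma adjusted p = 0.00265), and Crtc2, a coactivator of CREB, rose by 0.22 (limma adjusted p = 0.0114). The 3 that fell were Hdac5, a class IIa relative of HDAC4 (-0.42, limma adjusted p = 0.000211), Mrtfb, a coactivator of serum response factor (-0.46, limma adjusted p = 0.000902), and Mef2a (-0.25, limma adjusted p = 0.0434), whose call held in 1 of the 9 fits that left out 1 heart (limma adjusted p up to 0.0966). Mrtfb was the 1 regulator called between the TAC groups, beside 0.254% of all genes. It was higher with HDAC4-NT (0.43, SE 0.06, limma adjusted p = 0.0458), a call lost without any 1 of 7 of the 9 hearts (limma adjusted p up to 0.205). Mrtfb read 7.67, 7.68 and 7.72 with TAC and luciferase and 8.12, 8.19 and 8.05 with HDAC4-NT, against 8.02, 8.22 and 8.21 in sham hearts. So the Mrtfb level with HDAC4-NT overlapped with sham. With HDAC4-NT against sham, Stat3 and Mef2c were higher, and Hdac5, Mef2a and Crtc3 lower, beside 10.5% and 12.3% of all genes. Leaving out 1 heart ended the Mef2a call for any of the 3 TAC-HDAC4-NT hearts (limma adjusted p up to 0.0774), and the Mef2c and Crtc3 calls each held in 5 of 9 such fits (limma adjusted p up to 0.0936 and 0.0803). Of 10 genes for turnover of Fos and Jun mRNA or protein, 0 rose and 1 fell after TAC with luciferase, beside 11.2% and 14.9% of all genes. The 1 that fell was Det1, part of a ubiquitin ligase that targets Jun (-0.24, limma adjusted p = 0.018). It lost the call without sham heart 3 or TAC-luciferase heart 1. Zfp36, which destabilises AU-rich mRNAs, had the smallest p of that list between the TAC groups (-1.27, limma adjusted p = 0.126), where 0 of 10 were called by limma and 1 had an unadjusted p under 0.05, beside 14.3% of all genes. Without TAC-luciferase heart 1, Zfp36 was called lower there (-1.74, limma adjusted p = 0.000864). This was the only 1 of the 9 fits leaving out 1 heart that called Zfp36 (limma adjusted p up to 0.367). With HDAC4-NT against sham, 2 of the 10 were called, both lower, beside 10.5% of all genes called higher and 12.3% lower. The list median was -0.12. Det1 differed by -0.24 (limma adjusted p = 0.0222), a call lost without sham heart 2 or 3 or TAC-HDAC4-NT heart 1 or 3 (limma adjusted p up to 0.0845). Khsrp, which encodes an RNA-binding protein that promotes decay of AU-rich mRNAs, differed by -0.17 (limma adjusted p = 0.0449), a call held in 1 of the 9 fits that left out 1 heart (limma adjusted p up to 0.136).

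Known AP-1 target genes include those of matrix turnover and growth. Of 21 targets measured, 17 were tested, and 11 rose and 0 fell after TAC with luciferase, beside 11.2% and 14.9% of all genes, with a median of 0.72. Plaur, the urokinase receptor, passed the filter only through the TAC-luciferase hearts, so it had to be higher there, and counts and medians that include it are a description. Timp1, an inhibitor of matrix metalloproteinases, rose by 2.50 (SE 0.16, limma adjusted p = 2.09e-05), Fn1, which encodes fibronectin, by 1.65 (SE 0.09, limma adjusted p = 8.36e-06) and Mmp2, a matrix metalloproteinase, by 1.43 (SE 0.08, limma adjusted p = 1.14e-05). With HDAC4-NT, 9 targets were higher than sham and 1 lower (Vegfa, -0.29, limma adjusted p = 0.0415), beside 10.5% and 12.3% of all genes, with a median of 0.47. The Vegfa call held in 3 of the 9 fits that left out 1 heart (limma adjusted p up to 0.152). Timp1 was then higher by 2.31 (limma adjusted p = 3.07e-05), Fn1 by 1.81 (limma adjusted p = 4.58e-06) and Mmp2 by 1.32 (limma adjusted p = 1.72e-05). Between the TAC groups 0 of 17 were called by limma, 8 of them at an unadjusted p under 0.05, beside 14.3% of all genes, with a median of -0.16 and the smallest p for Vegfa, the blood vessel growth factor (-0.40, limma adjusted p = 0.0844). Without TAC-luciferase heart 1, 5 targets were called lower there, beside 3.15% of all genes: Plaur, Ptgs2, Tgfb1, Vegfa (-0.43, limma adjusted p = 0.0394) and Hmox1. Of the 9 fits that left out 1 heart, only that 1 called Vegfa between the TAC groups (limma adjusted p up to 0.304). The 6 fibroblast markers averaged 8.27 to 8.40 in sham, 8.84 to 9.02 in TAC-luciferase and 9.02 to 9.14 in TAC-HDAC4-NT hearts, with 3 of 6 called higher against sham in each TAC group. The part of fibroblasts in the matrix genes among these targets was not tested.

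Other immediate early genes were set beside the family, since the same signals switch them on. Of 24 tested, 16 rose and 0 fell after TAC with luciferase, beside 11.2% and 14.9% of all genes, with a median of 0.77 against 0.38 for the family. The number that rose was 23 without TAC-luciferase heart 1, beside 1519 of the 12597 genes tested called higher in that fit. Btg2, an antiproliferative gene, read 7.17, 7.12 and 7.34 with sham, 8.40, 8.64 and 8.63 with TAC and luciferase, and 7.16, 7.33 and 7.45 with HDAC4-NT. The TAC-luciferase hearts of Btg2 lay close together, unlike those of Fos. Btg2 rose by 1.35 (SE 0.10, limma adjusted p = 3.24e-05) and was lower with HDAC4-NT than with luciferase (-1.24, SE 0.10, limma adjusted p = 0.00423), a call it kept without any 1 of the 9 hearts. Klf4, a growth-arrest factor, was also called lower there (-0.53, SE 0.08, limma adjusted p = 0.0458) but not without any 1 of 7 of the hearts. All 24 differences between the TAC groups were below 0, as were 47.9% of those of all genes, and the list's median was -0.70. Btg2 and Klf4 were the 2 called lower with HDAC4-NT than with luciferase, beside 14 of the 12597 genes tested. Without TAC-luciferase heart 1 the number was 19, beside 3.15% of all genes called lower in that fit.

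Nr4a1, a nuclear receptor, read 6.64, 7.55 and 6.98 with sham, 7.66, 10.6 and 10.6 with TAC and luciferase, and 6.68, 7.26 and 7.20 with HDAC4-NT. TAC-luciferase heart 1 lay just above sham, as for Fos. Nr4a1 rose by 2.57 (SE 0.68, limma adjusted p = 0.022), a call lost without sham heart 1 or 3 or TAC-luciferase heart 2 or 3, and differed by -2.58 between the TAC groups (SE 0.68, limma adjusted p = 0.125), or by -3.56 without TAC-luciferase heart 1, where it was called (limma adjusted p = 0.00027). Egr1, a zinc finger factor, rose by 1.54 (SE 0.37, limma adjusted p = 0.0146) and differed by -1.59 between the TAC groups (limma adjusted p = 0.0922), called without TAC-luciferase heart 1 (-1.75, limma adjusted p = 0.0433). Myc, a growth regulator, rose by 1.74 (SE 0.28, limma adjusted p = 0.00195) and differed by -1.43 (limma adjusted p = 0.0636), called without the same heart (-1.78, limma adjusted p = 0.00119). Nr4a1, Egr1 and Myc were each called between the TAC groups in only 1 of the 9 fits that left out 1 heart. Their limma adjusted p reached 0.391, 0.309 and 0.232 in the other fits. With HDAC4-NT against sham, 2 of the 24 early genes were called, both higher, beside 10.5% of all genes called higher and 12.3% lower. They were Ier3 (0.65, limma adjusted p = 0.00357) and Ccn1, a matricellular protein (0.90, limma adjusted p = 0.00812). The median of this list was -0.0026 there.

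**Figure D4:**
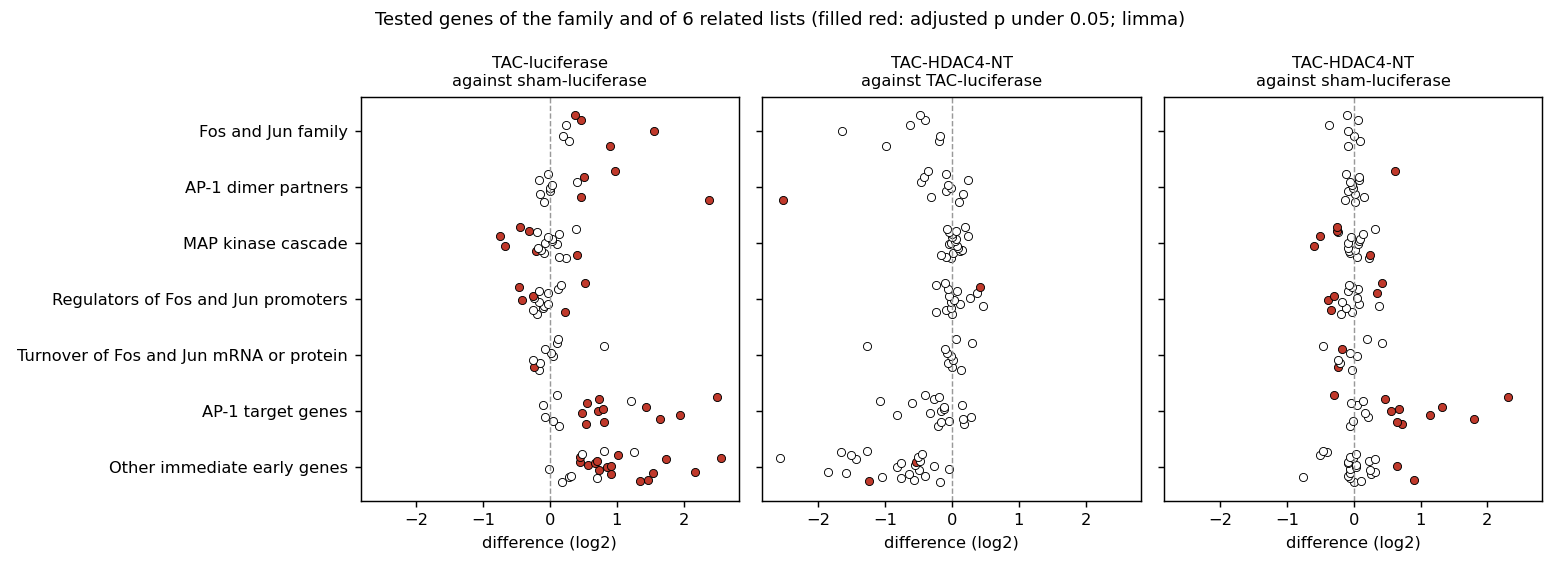
Log2 difference (x axis) of each tested gene of the family and of 6 related lists (y axis) in the 3 comparisons, with genes past an adjusted p of 0.05 in limma filled red. AP-1 target genes lie to the right in both comparisons with sham, whereas other immediate early genes lie to the right with luciferase, to the left between the TAC groups and on both sides of 0 with HDAC4-NT against sham.

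Markers of other cells in the heart were read beside the family. The 6 macrophage and myeloid markers averaged 7.70, 7.36 and 7.41 in hearts 1, 2 and 3 of the TAC-luciferase group, 7.09 to 7.16 in sham and 7.46 to 7.60 with HDAC4-NT, so heart 1 was the highest where Fos and Fosl2 were the lowest of the group. The 6 endothelial markers averaged 9.41, 9.21 and 9.37 in those hearts, against 9.44 to 9.52 in sham and 9.62 to 9.66 with HDAC4-NT. The 4 atrial markers averaged 5.98, 6.23 and 8.07 in those 3 hearts, against 6.43 to 7.49 in sham and 5.94 to 6.94 with HDAC4-NT. Smooth muscle and pericyte markers averaged 7.61 to 7.69, 7.71 to 7.82 and 7.90 to 7.94. Of the neutrophil and lymphocyte markers 1 each was tested. The part of these cells in the family's values was not tested.

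Genes whose pattern over the 9 hearts was most like each member's were ranked by Pearson's r, with the family's own members and genes under provisional symbols left out, and all of these points share the arrays and the split among the TAC-luciferase hearts. For Fosl2 the closest were Apold1 (r = 0.99), Runx3 (0.98) and Adamts9 (0.98). The same 3 genes came closest to Fos, at 0.99 each. Over the 7 hearts left without TAC-luciferase hearts 2 and 3, Apold1 stayed at 0.94 with Fosl2 and 0.88 with Fos, and Adamts9 dropped to 0.70 and 0.74. Fosb was closest to Trp53inp1 (0.99, and 0.97 over 7 hearts), then Tnfrsf10b and Maff. Fosl1 came closest to Xpnpep1 and Bcl3 (0.98 each, and 0.84 over 7 hearts), while Socs3 dropped from 0.97 to 0.35. Junb was closest to Adamts1 (0.99, and 0.94 over 7 hearts), Myc and Nek6. Jun, whose order among the hearts differed, was closest to Vegfa (0.97, and 0.96 over 7 hearts), Atxn7 and Tmem222, and Jund to Vrk1 (0.93, and 0.92 over 7 hearts), Doxl2 and Shb. Within the family, Fos and Fosl2 had r = 0.99 over 9 hearts and 0.85 over 7. Fos and Fosb had 0.93 and -0.24, so their likeness rests on TAC-luciferase hearts 2 and 3. These are descriptions over few hearts, with no test.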

How the data were processed

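Trizol-extracted total RNA of whole hearts was labelled with biotin as cRNA and hybridised to Affymetrix arrays (labels' protocols). The authors deposited log2 values from RMA, per the submitters' processing notes. The sources used here do not give its version, its probe set definitions or a genome build. Sorting the values of each of the 9 arrays gave the same list, a mark of quantile normalization. RMA compresses low values, so differences of weakly expressed genes are understated. These values come without a depth or a detection p, and the precision is limited by 9 arrays.

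Of 21225 probe sets, 20239 carried 1 gene symbol in the platform annotation, and 986 are unnamed here. All 20239 were found by gene ID in the RefSeq gene table of GRCm38.p6. A gene was tested where 3 or more arrays exceeded the 40th percentile (5.66), which kept 12597 and left out 7642. Groups came from the labels, which give 3 male animals per group. The linear model used limma 3.58.1 under R 4.3.3, through lmFit, contrasts.fit and eBayes, with all 9 arrays, 6 residual degrees of freedom and 3.23 from the prior. P-values were adjusted by Benjamini-Hochberg over all genes tested. Promoter windows came from RefSeq for 6 members, and that of Fosl1 is not analysed here. Figures were drawn in Python 3.11.15 (matplotlib 3.10.9). The scripts were tested on simulated data.

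The members and the gene lists were chosen with earlier results of these data known. Named genes were the 7 members, up to 3 called genes with the smallest p of each of 6 lists in each comparison (or, with none called, the 1 with the smallest p), and Atf3, Nr4a1, Egr1 and Myc whatever their values. For each member, the 3 tested genes with the highest Pearson correlation were also named, with other members and genes under provisional symbols left out. Plaur, Jdp2, Ptgs2, Tgfb1, Hmox1, Maff, Mapk9, Map2k5, Map2k3, Crtc2, Crtc3, Mef2c, Mef2a in TAC-luciferase against sham-luciferase and Vegfa in TAC-HDAC4-NT against sham-luciferase were named after their values were seen. Alternatives were testing every gene, a filter at the 60th percentile, cyclic loess, array weights, a robust prior with a trend, only 6 arrays in a fit, and thresholds of 0.01 and 0.10. Others used the replicate number as a fixed block or the leading figure in each sample code as a random one, left out each array, or left out TAC-luciferase hearts 2 and 3. The last of these leaves heart 1 alone in its group, so only effect sizes are given from it.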

Additional observations from a re-analysis of the deposited data

How the results depend on the processing

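In TAC-luciferase against sham-luciferase the 7 members kept their direction under every alternative that tested them. The stricter filter left Fos, Fosb and Fosl1 untested. Of 3283 genes called, 1748 were called at an adjusted p under 0.01, where 2 members were called, and 1926 were called without TAC-luciferase hearts 2 and 3. Leaving out 1 array gave 2435 to 3230 genes and 2 to 5 members. Fosb, not called in the reported fit, was called with a trended and robust prior, array weights and the sample code as a random block. That block, whose correlation was below 0 (-0.11), gave 3988 genes called. Cyclic loess scaling, which moved no array's median by over 0.03, gave 1625 higher and 1521 lower against 1405 and 1878.

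In TAC-HDAC4-NT against TAC-luciferase, 32 genes and 0 members were called. The counts of genes and members were 10 and 0 with no filter, 103 and 2 with the stricter filter (Fosl2 and Junb), and 75 and 1 with a trended and robust prior (Junb). They were 827 and 5 with array weights (all but Fosb and Fosl1), 0 and 0 with only 6 arrays, and 177 and 3 with the sample code as a random block (Fosl2, Junb and Jund). At an adjusted p under 0.01 they were 3 and 0, and at 0.10 they were 297 and 3. Leaving out 1 array gave 1 to 697 genes and 0 to 5 members. Fosb reversed to 0.034 without TAC-luciferase hearts 2 and 3.

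In TAC-HDAC4-NT against sham-luciferase, 1579 genes were called at an adjusted p under 0.01, and leaving out 1 array gave 1921 to 3161 genes and 0 members. Values near 0 changed sign: Fosl1 to -0.0024 with array weights and Nr4a1 to 0.0092 with cyclic loess and 0.0028 with the sample code as a random block. Leaving out 1 array gave -0.030 to 0.029 for Fosl1, -0.47 to 0.16 for Egr1 and -0.22 to 0.24 for Nr4a1.

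With the replicate number as a block, 106 genes and 1 member (Jun) were called in TAC-HDAC4-NT against TAC-luciferase, and 1 member (Jun, limma adjusted p = 0.0196) in TAC-HDAC4-NT against sham-luciferase. The numbers were not taken to pair the hearts, since 2 of 9 same-numbered pairs correlated above 0.1 (r from -0.12 to 0.20). The causes of these changes were not tested.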
